A study of Mus musculus with 2 samples.

Results

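The immunoglobulin heavy chain V segments of the mouse were taken as every gene and pseudogene of the GENCODE vM21 annotation whose symbol starts with Ighv. There were 185 such entries among 55450 annotated genes, all on chromosome 12 of build mm10, from chr12:113572927 to 116010093, a span of 2437 kb. The annotation gives 113 of them the type IG_V_gene, 70 the type IG_V_pseudogene and 2 the type IG_LV_gene, and places 183 on the minus strand. The 2 of type IG_LV_gene, on the plus strand, repeat the symbols Ighv5-8 and Ighv1-13 of pseudogenes at the same place, so the 185 entries carry 183 symbols. They belong to 16 families, the largest being Ighv1 with 93 entries, Ighv5 with 22, Ighv8 with 16 and Ighv2 with 11. CTCF binding was measured by chromatin immunoprecipitation with sequencing (ChIP-seq) in livers of B6NCrl mouse embryos at day 14.5, of both sexes, with no genetic change or treatment named in the labels. The 2 libraries, replicates 1 and 2, were made from 1 biosample of pulverised livers from several dissections. There is 1 group and no condition to compare, so every value below is a description and no test was made. The spread between the replicates may be technical, since nothing in the labels says that they hold different animals.

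A heavy chain V exon is assembled in B cell precursors when the RAG enzyme joins a D to a J segment and then 1 V segment to that DJ. Each V segment is followed on its 3' side by a recombination signal, a heptamer and a nonamer held apart by a spacer, which RAG recognises. CTCF is a zinc finger protein that halts the cohesin motor as it extrudes chromatin loops, and it does so according to the direction of its motif. In the heavy chain locus of mouse pro-B cells, CTCF sites are known beside many V segments near the D segments, in a control region between the V and D segments (IGCR1), and in an array beyond the 3' regulatory region of the constant genes (the 3' CBEs). Embryonic liver is a site of early B cell development, but most of its cells belong to other blood lineages or are hepatocytes, and peak lists hold no expression that could check the makeup of the tissue. In such a bulk sample, fewer cells with a bound site and weaker binding per cell cannot be told apart.

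The sequences that carry the description are the stretches from the recombination signal to the CTCF motif behind single V segments. They are given on the minus strand, 5' to 3' in the direction of V transcription, with the heptamer, the nonamer and the core CTCF motif in capitals. Ighv2-3, Ighv5-17 and Ighv11-1 held the V-span summits of highest signal. Ighv5-2, the first intact V segment from the D side, held the strongest summit that missed the reproducible list, and Ighv2-2 and Ighv3-1 held a motif but no summit.
Ighv2-3, chr12:113611110-113611183: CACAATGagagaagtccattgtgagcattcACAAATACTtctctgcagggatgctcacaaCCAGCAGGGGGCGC
Ighv5-17, chr12:113859077-113859148: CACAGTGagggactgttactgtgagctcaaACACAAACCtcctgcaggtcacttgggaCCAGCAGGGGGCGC
Ighv11-1, chr12:113981805-113981878: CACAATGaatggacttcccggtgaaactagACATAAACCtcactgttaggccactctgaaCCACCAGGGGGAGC
Ighv5-2, chr12:113578432-113578503: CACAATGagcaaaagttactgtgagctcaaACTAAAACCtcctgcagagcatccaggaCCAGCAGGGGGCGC
Ighv2-2, chr12:113588193-113588266: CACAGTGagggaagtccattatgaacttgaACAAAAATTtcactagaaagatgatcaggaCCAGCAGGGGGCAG
Ighv3-1, chr12:113964314-113964387: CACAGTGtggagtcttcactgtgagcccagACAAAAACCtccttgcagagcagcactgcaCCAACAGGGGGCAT

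Sites were placed by the peak summit. The optimal list holds the 50909 peaks that the authors kept by the irreproducible discovery rate (IDR), and the pooled list the 300000 peaks called on both replicates together. Signal is the deposited value of a peak within its list. The relative signal of a site in a replicate is that of its peak there, with a summit within 100 bp, over the median of the 50909 peaks of highest signal in the same replicate. A relative signal of 1 is thus the median of those peaks. Read depth is unknown. Of all optimal summits, 93.5% had a summit of both replicates within 100 bp, and of all pooled summits 26.2%.

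The V span held 16 optimal CTCF summits, named V1 to V16 here from the D side outwards. That was 6.56 per Mb, against 19.2 per Mb over the assembled genome. They were weak for this list, with a median signal of 29.8, against 67.9 over the whole list. The strongest, V1 behind Ighv2-3, had a signal of 98.4, and it was the 1 V-span summit above the list median. They were also unevenly placed. The 500 kb next to the D segments held 12 of the 16 and 45 of the 185 segments, and each of the other 4 stretches of up to 500 kb held 1. Taken alone, the 50909 strongest peaks of replicate 1 had 7 summits in the span and those of replicate 2 had 19. The longest gap, 615 kb, lay between V13 at Ighv12-3 and V14 near Ighv1-46. All 15 V-span summits with a motif had it on the minus strand, the strand of V transcription, whereas 49.9% of the motif-bearing optimal summits of the genome were on that strand.

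**Figure D1:**
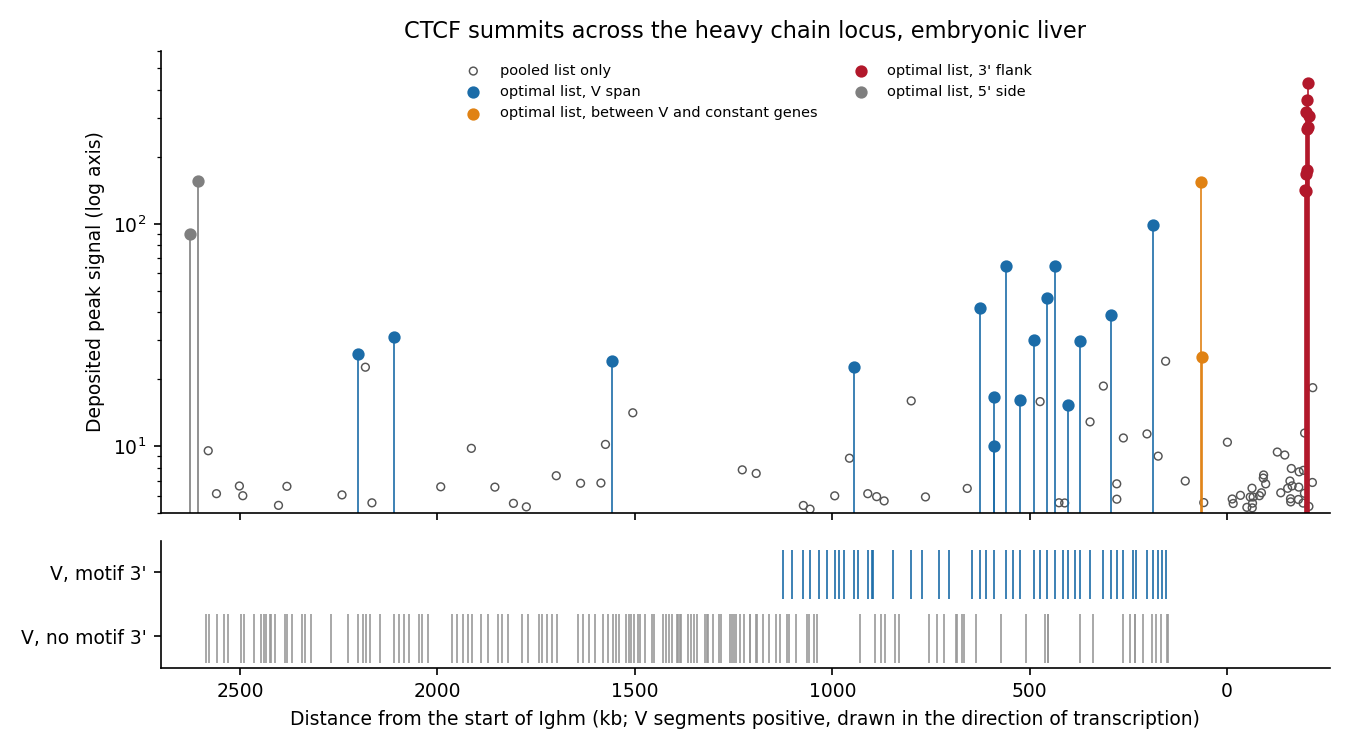
CTCF summits across the heavy chain locus. The upper panel plots deposited peak signal (log axis) against the distance from the start of Ighm in kb, with filled points for the optimal list, coloured by region, and open circles for pooled-list summits that are not in it; the lower panel marks the 185 V segments by whether a core CTCF motif lies within 100 bp of their 3' end. The 16 V-span points sit at or below 98.4, with 12 of them on the D side, while the 10 points of the 3' flank sit between 141 and 429.

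Of the 185 V segments, 14 (7.57%) had an optimal summit within 1 kb. The same held for 31.9% of all other annotated genes, and for 6.73% of the 13092 other genes no longer than the longest Ighv entry of 572 bp, so the share was close to that of short genes. In the pooled list 31 segments (16.8%) had a summit within 1 kb, against 57.2% of all other genes and 26.8% of the short ones, below both. Replicate 1 alone placed a summit near 23 segments (12.4%), replicate 2 near 36 (19.5%), and both replicates near 19. The shares of all other genes were 57.1% in replicate 1 and 57.5% in replicate 2. Those of the short genes were 27% and 25.4%, so the Ighv shares were below both. Within the 50909 strongest peaks of a replicate, the count was 7 segments in replicate 1 and 16 in replicate 2. For these counts and that of both replicates, no share over other genes was taken. V genes without pseudogene status had an optimal summit in 12 of 115 cases and pseudogenes in 2 of 70.

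The most 3' optimal sites lay behind Ighv2 segments, a family of mostly intact V genes close to the D segments. V1 at Ighv2-3 had a relative signal of 1.07 in replicate 1 and 1.84 in replicate 2, which averaged 1.45 ± 0.546 (SD, n = 2). V2 at Ighv2-6 had 0.707 and 0.473, an average of 0.590 ± 0.165 (SD, n = 2). V3 at Ighv2-6-8 had 0.551 and 0.363, an average of 0.457 ± 0.134 (SD, n = 2). V1 was thus above both others in each replicate, and V2 was above V3 in each replicate as well, by less than the gap between its own replicates. V6 at Ighv2-9 had 0.740 and 0.714, an average of 0.727 ± 0.0189 (SD, n = 2). It was the Ighv2 site on which the replicates differed least.

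Ighv5 segments, the family that is interleaved with Ighv2, held 2 optimal sites of unequal signal, of which the higher was near the list median. V5 at Ighv5-17 had a relative signal of 1.05 in replicate 1 and 0.888 in replicate 2, an average of 0.969 ± 0.115 (SD, n = 2). V4 at Ighv5-15, 32.5 kb nearer the D segments, had 0.278 and 0.159, an average of 0.218 ± 0.0841 (SD, n = 2). The values of V5 and V4 did not overlap.

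Ighv11, a family of 2 members, had an optimal site behind both. V9 at Ighv11-1 had a relative signal of 0.976 in replicate 1 and 0.949 in replicate 2, an average of 0.962 ± 0.0186 (SD, n = 2). V12 at Ighv11-2 had 0.388 and 0.831, an average of 0.610 ± 0.313 (SD, n = 2). V9 was higher than V12 in each replicate, but by less in replicate 2. Both members of Ighv4 also had one, and it was weak. V8 at Ighv4-1 had a relative signal of 0.233 in replicate 2, and replicate 1 had no summit within 100 bp of the optimal summit. Replicate 1 did have one within 100 bp of the motif behind Ighv4-1, with a relative signal of 0.192. V10 at Ighv4-2 had 0.144 and 0.286, an average of 0.215 ± 0.101 (SD, n = 2). V11, 0.235 kb away inside Ighv4-2, had 0.154 in replicate 1 and no summit in replicate 2. V11 had the lowest optimal signal in the span, 10.05, and was its 1 summit without a core motif.

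V7 at Ighv7-2 had a relative signal of 0.320 in replicate 1 and 0.507 in replicate 2, an average of 0.414 ± 0.132 (SD, n = 2). V13 at Ighv12-3, the last optimal site behind a V segment, had 0.266 and 0.335, an average of 0.300 ± 0.0493 (SD, n = 2). The remaining 3 sites lay in the distal Ighv1 part. V14 was 3566 bp 5' of Ighv1-46 and near no segment, with 0.227 in replicate 1 and 0.510 in replicate 2. V15, 838 bp 5' of the pseudogene Ighv1-65, had 0.265 and 0.619. V16, 816 bp 5' of Ighv1-69, had 0.209 and 0.515. All 3 were higher in replicate 2 by more than 2-fold. Across the V span, 6 summits were higher in replicate 1, 8 in replicate 2, and 2, V8 and V11, had a summit of 1 replicate within 100 bp.

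**Figure D2:**
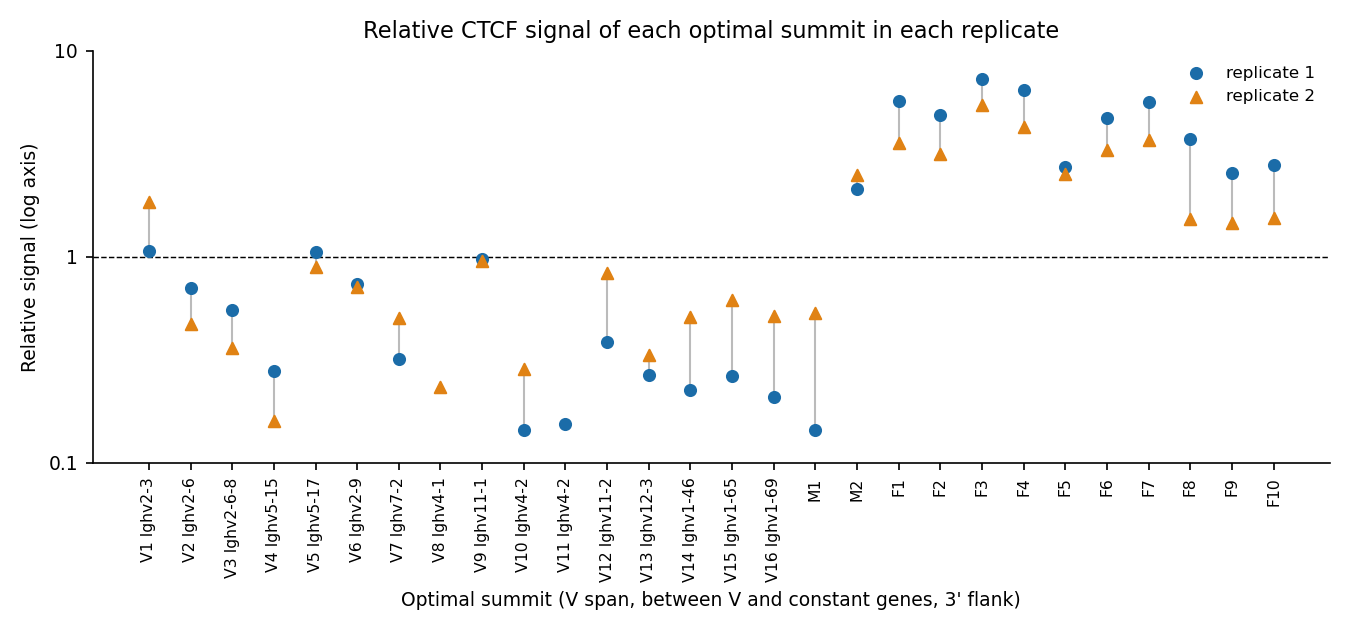
Relative signal (log axis) of each optimal summit in replicate 1 (circles) and replicate 2 (triangles), joined by a line where both replicates had a summit within 100 bp; the dashed line is the median of a replicate's 50909 strongest peaks. Sites V1 to V16 are labelled with the nearest V segment, M1 and M2 lie between the V and constant genes, and F1 to F10 in the 3' flank; all F points are above 1, and most V points below it.

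The V-span summits shared a position that the choice of segments did not use. Of the 16, 12 lay 49 to 88 bp beyond the 3' end of a V segment, with a median of 71 bp. These lay just past the recombination signal, except V7, as the search described below recognised no signal behind Ighv7-2. The core CTCF motif was searched on both strands over its 14 positions with at most 2 mismatches. It stood within 50 bp of 15 of the 16 summits (93.8%), compared with 70.8% of all optimal summits. Among the strongest peaks of single replicates, all 7 V-span summits of replicate 1 and all 19 of replicate 2 had one. The V-span matches were close ones. Of the 16 summits, 7 (43.8%) had a motif with 0 mismatches, against 10.4% of all optimal summits, and the other 8 motifs had 1 mismatch.

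The same search was then made within 100 bp beyond the 3' end of every V segment, whether or not a peak was there. A motif was found behind 46 of the 185 segments, and a match occurs in 1.8% of the 100 bp windows of chromosome 12. All 46 were on the minus strand. Of the 46, 41 followed a recognisable recombination signal, found as the heptamer CACAGTG and the nonamer ACAAAAACC with at most 4 mismatches in all. The heptamer had to start with CAC. Such a signal was found at 130 of all 185 segments, and at 73 of the 93 Ighv1 segments, so it was not particular to segments with a motif. Only spacers of 22, 23 or 24 bases between heptamer and nonamer were tried, with 23 preferred among equal matches at the same position. Within that search, 39 of the 41 had a spacer of 23 bases, which says nothing of other lengths. The motif began 16 to 36 bp after the nonamer, and 21 bp after it in 25 of the 41. The families differed widely. A motif stood behind 9 of 11 Ighv2 segments, 10 of 22 Ighv5 segments, all 4 Ighv7 and all 4 Ighv10 segments, 5 of 7 Ighv6 segments and 4 of 8 Ighv3 segments. None of the 93 Ighv1 segments had one, nor any of the 4 Ighv9 and 4 Ighv14 segments. Counted from the D side, the last segment with such a motif was the 84th. The 101 segments beyond it had 2 with an optimal summit, and the 84 up to it had 12.

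**Figure D3:**
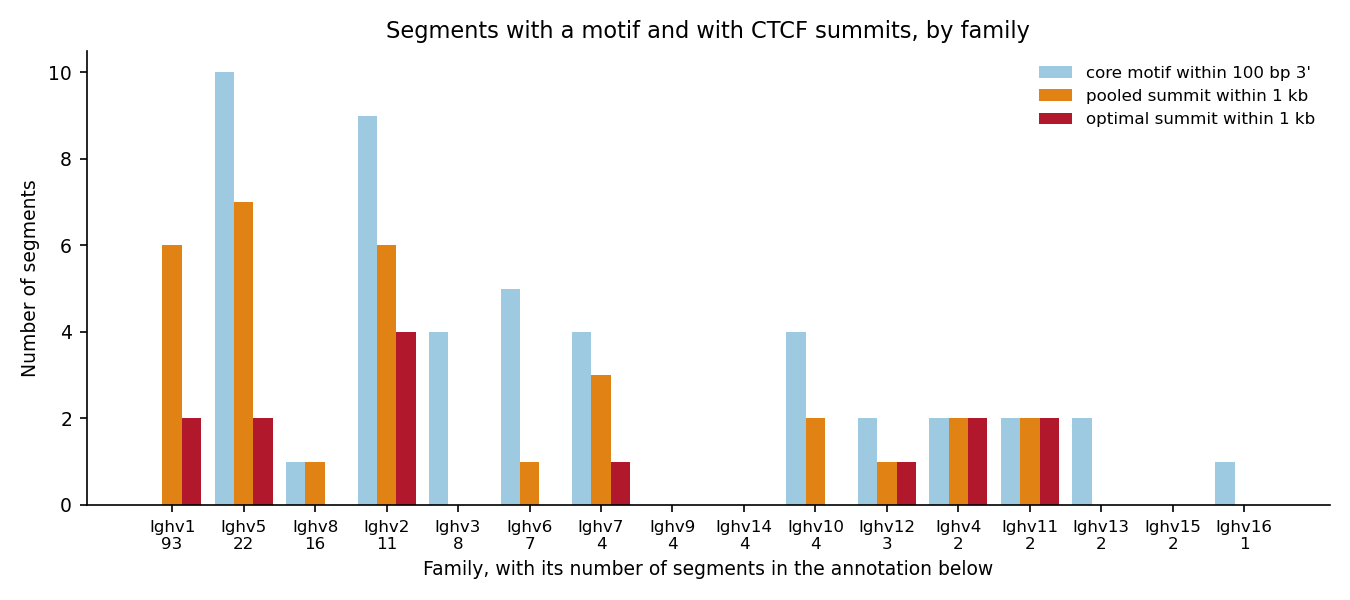
Number of segments in each Ighv family with a core CTCF motif within 100 bp of the 3' end (light bars), a pooled-list summit within 1 kb (orange) and an optimal summit within 1 kb (red); families are ordered by their number of segments, given under each name. Ighv5 and Ighv2 have the highest motif counts, 10 and 9 of 46. Their pooled counts are 7 and 6 of 31, and their optimal counts 2 and 4 of 14. Ighv1, with 93 segments, holds no such motif, 6 pooled and 2 optimal counts.

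By count, summits were more frequent at closer matches. Of the 12 segments whose 3' motif had 0 mismatches, 5 had an optimal and 11 a pooled summit within 1 kb. Of the 21 with 1 mismatch, 7 had an optimal and 13 a pooled summit. Of the 13 with 2 mismatches, 0 had an optimal and 1 a pooled summit, and of the 139 segments without a 3' motif, 2 and 6. The classes also differed in family. Segments with 0 mismatches came from 2 families, Ighv2 and Ighv5, those with 1 mismatch from 11 and those with 2 from 7. Whether the counts go with the match, the family or the position was not tested. The 46 motifs were made of 31 different words. The commonest, CCAGCAGGGGGCGC, stood behind 9 segments of the Ighv2 and Ighv5 families: Ighv5-2, Ighv2-3, Ighv5-6, Ighv5-12, Ighv2-6, Ighv5-9-1, Ighv2-6-8, Ighv5-17 and Ighv2-9. All 9 had a pooled summit within 1 kb and 5 an optimal one. Their highest pooled signal within 1 kb still ranged from 98.4 at Ighv2-3 to 6.77 at Ighv5-12, although the 14 motif bases were the same, and at Ighv5-6 no pooled summit lay within 100 bp of the motif. The share of 36-base words within 150 bp of the motif that occur once in the genome was 20.9% at Ighv5-6 and 28.6% at Ighv5-12, against at least 57.5% at each of the other 7 segments, and its part in their low signal was not tested. Ighv2-2 and Ighv2-5 carry the changes G13A and C14G relative to that word, counted from its 5' end. Ighv2-5 had a pooled summit of signal 10.9, found in replicate 2, and Ighv2-2 had none in the pooled list or in either replicate. Ighv3-1, Ighv3-2 and Ighv3-8, which share the changes G4A, G13A and C14T, had no pooled summit either. Their shares of such single-copy words were 28.9%, 31.6% and 93.4%, in the same order, and 79.7% at Ighv2-2. These words were grouped after the values were seen.

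The pooled list held 58 summits in the V span, or 23.8 per Mb, against 113 per Mb in the genome. Of these, 18 were found in both replicates, 9 in replicate 1 only, 20 in replicate 2 only and 11 in neither within 100 bp. The strongest of the 42 that were not in the optimal list, W1, lay 68 bp behind Ighv5-2, the segment known in mouse for its frequent use in early B cell precursors. W1 had 24.1 for its signal, with relative signals of 0.237 in replicate 1 and 0.456 in replicate 2, an average of 0.346 ± 0.155 (SD, n = 2). It lay well within the range of the optimal V sites. W2 was 764 bp 5' of Ighv1-67, with a signal of 22.7 and relative signals of 0.271 and 0.366. W3, behind Ighv5-9-1, had 18.6 and was seen in replicate 2 with 0.426. W4 behind Ighv7-4 had a signal of 16.0, with 0.304 in replicate 1 and 0.243 in replicate 2. W5 behind Ighv7-1 had 15.9, with 0.239 and 0.258. W2, W4 and W5 were in the conservative IDR list though not in the optimal one.

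The segments at both ends of the span were named by position. Over all 185 segments, 31 (16.8%) had a pooled summit within 1 kb. On the D side, the pseudogenes Ighv5-1 and Ighv2-1 had no pooled summit within 1 kb, and the next segment, Ighv5-2, had W1. At the distal end, Ighv1-84 and Ighv1-85 had none. The last segment, Ighv1-86, had a pooled summit of signal 7.71, seen in replicate 2. Among the most 3' members of the larger families, Ighv6-1, Ighv3-1 and Ighv1-1 had no pooled summit, and Ighv8-1 had one of signal 6.12, seen in replicate 2.

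In the Ighv1 family a motif was found elsewhere. After V15, V16 and W2 had been seen, the stretch from 500 to 1200 bp 5' of each minus-strand segment was searched for a motif with at most 1 mismatch. It was found at 13 segments, all of Ighv1, each time on the minus strand and as the same word, which differs by G13A from the commonest word 3' of segments. At most 1 mismatch was met by 13 of the 183 segments searched and is met by 1.67% of the 700 bp windows of chromosome 12. All 13 had 0 mismatches, which 0.177% of those windows have. As the 13 share the same word within Ighv1, and V15, V16 and W2 are among them, they cannot be counted as independent matches. The 3 of these sites with the highest signal are shown on the minus strand, with the motif in capitals and 5 bases on each side.
V15, 5' of Ighv1-65, chr12:115533307-115533330: cacgaCCAGCAGGGGGCACaatgg
V16, 5' of Ighv1-69, chr12:115624400-115624423: ctggaCCAGCAGGGGGCACaatgg
W2, 5' of Ighv1-67, chr12:115605159-115605182: cagaaCCAGCAGGGGGCACaatgg
The motif lay 731 to 960 bp 5' of the segment, with a median of 787 bp. The 13 segments were Ighv1-52, Ighv1-53, Ighv1-55, Ighv1-61, Ighv1-62, Ighv1-62-3, Ighv1-64, Ighv1-65, Ighv1-67, Ighv1-69, Ighv1-72, Ighv1-74 and Ighv1-86. A pooled summit lay within 100 bp of the motif at 4 of them, Ighv1-65, Ighv1-67, Ighv1-69 and Ighv1-74, and an optimal one at 2.

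The V span is made of duplicated sequence, and reads from exact copies cannot be placed at 1 of them. The share of 36-base words found once in the genome was 64.0% in the V span, against 84.2% in a sample of chromosome 12 outside it. It was 69.2% in the 500 kb next to the D segments, and 49.3% and 53.5% in the 2 most distal stretches. The share within 150 bp of the motif was also taken at the 13 motif sites 5' of Ighv1 segments. Its median was 86.5% at the 4 with a pooled summit within 100 bp and 34.2% at the 9 without. Sites went against this on both sides. The motif 5' of Ighv1-86 had no pooled summit within 100 bp at a share of 94.0%. That of Ighv1-74 had one at a share of 24.3%, with a signal of 6.60 and no summit in either replicate. For the 33 motifs 3' of a segment with 0 or 1 mismatch, the medians were 87.0% at the 23 with a pooled summit within 100 bp and 87.7% at the 10 without. Read length is not known here, and the part of repeated sequence in the low summit density was not tested.

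**Figure D4:**
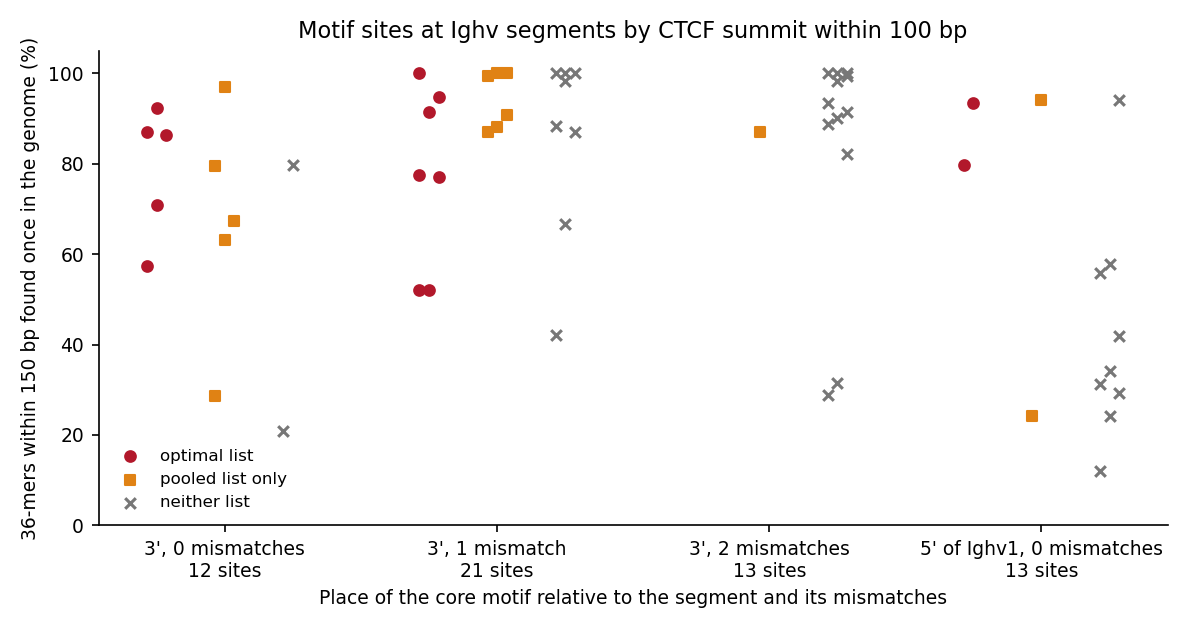
Share of 36-base words within 150 bp of a motif that occur once in the genome, for the 46 motifs 3' of a V segment by their mismatches and the 13 motifs 5' of Ighv1 segments; circles have an optimal summit within 100 bp, squares a pooled one only, crosses neither. Most 5' sites without a summit lie at low shares, while 3' sites without a summit lie at high and low shares.

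Between the V segments and the constant genes the list held 2 optimal summits, M1 and M2, which lay 2589 bp apart. They were 3110 and 5699 bp 5' of Ighd1-1, a D segment, where IGCR1 is known to lie, and on the near side of Adam6b, a gene needed for male fertility that lies among the immunoglobulin segments. M2 had 155 for its signal, with relative signals of 2.14 in replicate 1 and 2.50 in replicate 2, an average of 2.32 ± 0.252 (SD, n = 2). M1 had a signal of 25.1, with 0.144 in replicate 1 and 0.537 in replicate 2, an average of 0.340 ± 0.277 (SD, n = 2). Among the 50909 strongest peaks of replicate 1 there was 1 summit in this stretch, and 2 in replicate 2. M2 was higher than M1 in each replicate and higher than every V-span site in each replicate. The M2 motif was on the plus strand, which points to the V segments, and the M1 motif on the minus strand, so they point away from each other. No optimal summit lay within 1 kb of Adam6a or Adam6b, of Ighj1, Ighj2, Ighj3 or Ighj4, or of the 22 D segments, 2 of which had a pooled summit.
M2, chr12:113487883-113487906, plus strand: catagCCACAAGGGGGAAGcagag
M1, chr12:113485263-113485286, minus strand: cctctCCACAAGAGGGCAGaattc

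The constant genes Ighm, Ighd, Ighg3, Ighg1, Ighg2b, Ighg2c, Ighe and Igha, which encode the antibody classes, spread over 168 kb and held no optimal summit. Their 24 pooled summits reached a signal of 10.4 at most, at Ighm. Beyond Igha, by contrast, 10 optimal summits, F1 to F10, stood within 8302 bp, from 30.4 to 38.7 kb past its 3' end, where the 3' CBEs are known to lie. Their signals ran from 141 to 429, all above the list median, and all 10 were in the conservative list. Over the 50 kb flank that is 200 per Mb. F3 was the strongest, with a relative signal of 7.33 in replicate 1 and 5.47 in replicate 2, an average of 6.40 ± 1.31 (SD, n = 2). F9 was the weakest, with 2.55 and 1.45, an average of 2.00 ± 0.778 (SD, n = 2). In replicate 1 the V-span summits reached at most 1.07 and the flank summits at least 2.55, without overlap. In replicate 2 the V-span maximum of 1.84 at V1 was above the flank minimum of 1.45. All 10 flank summits were higher in replicate 1, while both summits between V and constant genes were higher in replicate 2.

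A core motif was found at 9 of the 10 flank summits, all 9 on the plus strand, opposite to the 15 V-span motifs, so that the motifs of both groups point towards each other across the locus. F9 had no match with 2 mismatches or fewer. The best matches were F4 and F6 with 0 mismatches. The common direction of all 9 is what sets them against the V-span motifs. Shown on the plus strand with 5 bases on each side are the motifs with 0 or 1 mismatch and that of F3. F3, the strongest summit, had 2 mismatches, as had F2, F5, F7 and F10, which are not shown.
F1, chr12:113216113-113216136: agaggCCACCAGGGGGTGCacaag
F3, chr12:113218081-113218104: actgaCCACACGGTGGCAGcagag
F4, chr12:113220048-113220071: tctagCCACCAGGGGGCACatgag
F6, chr12:113221403-113221426: tctgtCCACCAGGGGGCACctgag
F8, chr12:113222476-113222499: catggTCACCAGGGGGCGCacgag

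Farther 3', outside the heavy chain locus, the genes Tmem121, Crip1, Crip2 and Mta1 had optimal summits inside them or within 1 kb, with highest signals of 226 at Tmem121, 360 at Crip1 and Crip2, which share a summit, and 426 at Mta1. On the distal side, U1 stood 18212 bp 5' of Ighv1-86 with a signal of 156, a minus-strand motif and relative signals of 1.34 and 3.28. U2 stood within Zfp386, a zinc finger gene, with a signal of 89.7, a plus-strand motif and relative signals of 1.20 and 1.54.

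Other antigen receptor loci differed in how many V segments had a summit. An optimal summit lay within 1 kb of 14 and a pooled one of 31 of the 185 Ighv segments, against 0 and 5 (3.12%) of the 160 immunoglobulin kappa V segments, Igkv. Of the 170 T cell receptor V segments, 21 (12.4%) had an optimal and 46 (27.1%) a pooled summit. For the other genes no longer than the longest Ighv entry, the shares were 6.73% and 26.8%. The pooled share of the T cell receptor segments was thus close to that of short genes. Per Mb, the Ighv span held 6.56 optimal summits, the Igkv span 2.54, the Trbv span 22.5 and the Trav span 14.2. The median signal was 29.8 for the Ighv summits, 27.1 for Igkv, 42.2 for Trbv and 71.5 for Trav, and which cells of the liver these sites came from was not tested.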

How the data were processed

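The members, gene groups and searches were chosen with earlier results of these data known. The authors deposited narrowPeak lists on build mm10, per the file headers: 1 per replicate and 1 for the pooled replicates, of 300000 peaks each, and lists thresholded by IDR, optimal with 50909 peaks and conservative with 49129. The deposited signal has no stated scale and was compared within a list only. The offset in the deposited files gave the summit. The peak caller, read length and read depth are not given in the sources used here. No column of per-sample values was left unused (0).

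Summits were set against GENCODE vM21 genes and the GRCm38 reference sequence from RefSeq, with Python 3.11.15, numpy 2.4.6 and pandas 2.3.3. The 21 optimal peaks on unplaced scaffolds were left out. The motif search and the count of 36-base words were checked on made-up sequence first. A segment had a summit when 1 lay inside it or within 1 kb, and summits of different lists were shared within 100 bp. Named sites were every optimal summit of the locus, the 5 strongest pooled summits of the V span outside the optimal list, and segments picked by position. With 1 group and no condition, no test was made. Alternatives used the conservative list, the stronger part of the optimal list, single replicates, other distances, flanks and ranks, and other motif settings.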

Additional observations from a re-analysis of the deposited data

How the results depend on the processing

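Of 37 alternatives over 7 counts, 26 stayed within 1.5 times the reported count. Restricted to optimal peaks above the median signal, the V span kept 1 summit, 1 segment with a summit within 1 kb and 1 summit with a motif, and 1 summit stayed between the V and constant genes. The conservative list also held 1 there, since M1 is missing from it. Replicates left out in turn gave 7 to 19 summits in the V span, 7 to 16 segments with a summit within 1 kb, 7 to 19 summits with a motif, and 1 to 2 summits between V and constant genes. In each of these the low value was that without replicate 2. Left out in turn, they gave 10 to 11 summits in the 3' flank and constant genes and 23 to 36 segments with a peak of the remaining replicate. Pooled summits with both replicates within 100 bp lay near 17 segments, against 31 for all. A flank of 20 kb in place of 50 held 0 summits, as the array starts farther out. The motif count of 46 became 33 with at most 1 mismatch and 58 with at most 3. No paired analysis was possible because there is 1 group. Unknown depth limits what the absence of a weak summit shows, and sites in repeated sequence may go unmapped, which was not tested.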
